A study of Mus musculus with 2 samples.

Results

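Chromatin immunoprecipitation with sequencing (ChIP-seq) was applied to neural progenitor cells from the brain of C57BL/6 mice at embryonic day 13, with H2AZ, a variant of histone H2A, as the target. The series had 1 library made with an H2AZ antibody and 1 input library from the same kind of cells, without antibody; no genetic change or treatment is named for either. The values come from 1 list of peaks, in which the authors gave every peak its bounds and a score. The peaks described here are twins, meaning neighbours on a chromosome with a gap (next start minus previous end) of 500 bp or less. There were 347 such pairs, made of 693 of the 21546 peaks used, because 1 run of 3 peaks counted as 2 pairs. No other readout took part in the choice. With 1 ChIP library there was no replicate and no test, so shares and medians are given with exact 95% intervals that cover counting error only. The read depth is unknown, and the list has no coverage, so the H2AZ level inside the gaps was not analysed.

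H2AZ takes the place of histone H2A in some nucleosomes, the units of DNA wrapped on histones. Dedicated remodelling complexes put it in and take it out. In many animals and in yeast it is found in the nucleosomes beside the start of genes, where a stretch kept free of nucleosomes separates an upstream from a downstream neighbour. CpG-rich promoters, common among housekeeping and developmental genes, are a known place of H2AZ in mouse cells.

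The stretch of DNA between the midpoints of twin peaks often held a gene start. Among genes whose outermost 5′ end lay there, the promoters of the 6 whose pairs had the highest lower score are shown first (starts inside a gene's outermost bounds, as at Usp34, are left out), because they let the DNA under the pair be read beside its peaks. Each runs from 250 bases before to 50 after the RefSeq start (GRCm38.p6), 5′ to 3′ along the gene, with CpG dinucleotides in capitals.
Josd1 chr15:79687823-79688122 (minus strand): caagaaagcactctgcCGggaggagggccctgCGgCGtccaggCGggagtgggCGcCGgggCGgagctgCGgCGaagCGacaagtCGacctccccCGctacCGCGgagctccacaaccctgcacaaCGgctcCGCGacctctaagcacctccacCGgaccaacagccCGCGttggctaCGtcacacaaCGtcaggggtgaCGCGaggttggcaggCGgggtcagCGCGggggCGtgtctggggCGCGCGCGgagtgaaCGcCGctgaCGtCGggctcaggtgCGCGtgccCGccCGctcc
Rmnd5a chr6:71440588-71440887 (minus strand): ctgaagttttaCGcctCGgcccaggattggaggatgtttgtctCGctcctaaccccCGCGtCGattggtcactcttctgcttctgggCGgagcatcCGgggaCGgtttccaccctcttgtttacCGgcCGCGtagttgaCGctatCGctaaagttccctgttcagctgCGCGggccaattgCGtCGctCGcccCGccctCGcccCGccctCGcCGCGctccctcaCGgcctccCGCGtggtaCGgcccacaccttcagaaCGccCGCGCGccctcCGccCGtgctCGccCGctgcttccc
Sos1 chr17:80480404-80480703 (minus strand): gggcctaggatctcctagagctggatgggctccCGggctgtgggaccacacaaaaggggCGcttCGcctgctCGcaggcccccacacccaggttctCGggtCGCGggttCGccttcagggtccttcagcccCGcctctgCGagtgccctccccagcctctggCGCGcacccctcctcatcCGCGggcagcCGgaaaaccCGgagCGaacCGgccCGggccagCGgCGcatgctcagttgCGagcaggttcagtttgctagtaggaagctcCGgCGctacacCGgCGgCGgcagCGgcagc
Tbl1xr1 chr3:22076402-22076701 (plus strand): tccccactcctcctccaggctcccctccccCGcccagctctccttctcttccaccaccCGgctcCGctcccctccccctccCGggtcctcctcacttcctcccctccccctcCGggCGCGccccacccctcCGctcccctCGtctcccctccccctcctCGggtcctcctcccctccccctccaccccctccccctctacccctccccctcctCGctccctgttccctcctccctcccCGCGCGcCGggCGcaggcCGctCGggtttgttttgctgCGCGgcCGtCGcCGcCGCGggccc
6430571L13Rik chr9:107340390-107340689 (plus strand): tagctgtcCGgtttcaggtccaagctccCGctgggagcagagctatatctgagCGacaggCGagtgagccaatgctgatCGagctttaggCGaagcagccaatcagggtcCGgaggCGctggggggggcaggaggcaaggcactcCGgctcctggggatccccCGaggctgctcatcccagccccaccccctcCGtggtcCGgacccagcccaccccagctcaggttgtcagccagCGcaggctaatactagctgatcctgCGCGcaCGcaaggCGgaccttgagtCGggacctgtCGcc
Zfp661 chr2:127587045-127587344 (minus strand): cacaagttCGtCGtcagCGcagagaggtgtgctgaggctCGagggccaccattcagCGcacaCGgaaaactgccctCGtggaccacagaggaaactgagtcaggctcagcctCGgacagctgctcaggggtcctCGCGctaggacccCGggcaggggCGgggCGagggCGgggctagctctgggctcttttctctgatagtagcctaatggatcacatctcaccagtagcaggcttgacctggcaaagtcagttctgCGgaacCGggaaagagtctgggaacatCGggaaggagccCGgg

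These 6 pairs fell into 2 layouts. At Rmnd5a, a subunit of the CTLH ubiquitin ligase complex, the gap lay just before the start. Counted from the start along the gene, the upstream peak (score 25.20) ended at -118 bp and the downstream peak (score 20.88) began at -87 bp, and all 30 bases of the gap lay in the printed sequence. At Tbl1xr1, a subunit of the NCoR and SMRT corepressor complexes, both peaks scored 19.69, the gap was 394 bp, and 270 of the 300 printed bases lay in the gap. The start itself was in the gap, 20 bp before the downstream peak.

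In the other 4 pairs 1 peak covered the start with its middle part, and its neighbour lay to one side. At Josd1, a deubiquitinase gene, the downstream peak (score 25.65) ran from -1151 to 1154 bp around the start, and the upstream peak scored 21.77. At Sos1, which encodes an activator of Ras, the peak over the start scored 24.16 and the upstream one 20.02. At 6430571L13Rik the order of scores was turned round, with 26.85 upstream and 19.39 over the start. The 5′ end of a second gene also lay between the midpoints there (Hemk1) and at Josd1 (Gtpbp1). At Zfp661, a zinc finger gene, the upstream peak covered the start (18.84), and the downstream peak (19.14) began 1334 bp into the transcribed side. All 300 printed bases of these 4 promoters lay inside 1 peak.

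**Figure D1:**
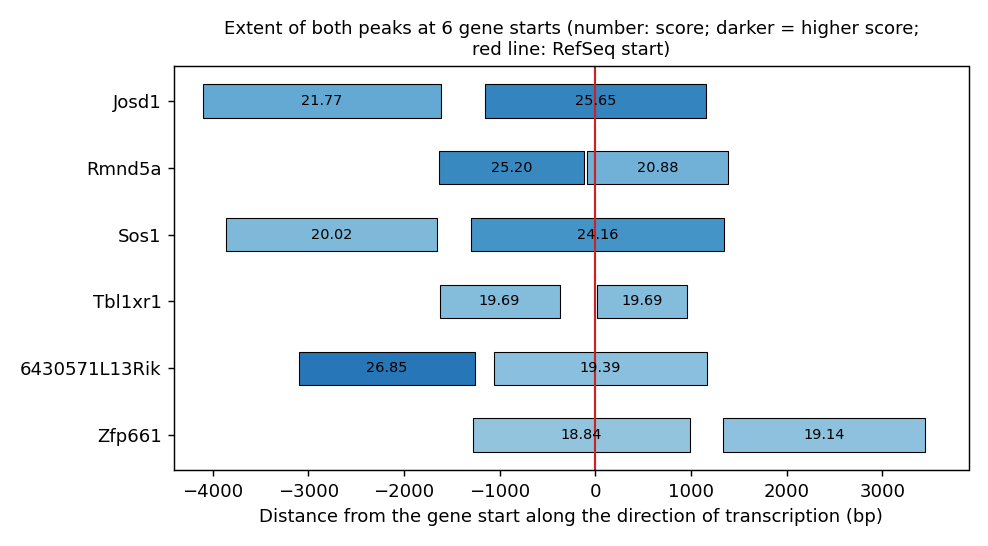
Extent of both peaks at 6 gene starts, in bp from the RefSeq start along the direction of transcription (x axis), 1 gene per row, with the score written in each bar. The start of Tbl1xr1 lies in the gap and that of Rmnd5a just inside the downstream peak, while at the other 4 genes it lies near the middle of 1 peak. The 5′ ends of Gtpbp1 (pair of Josd1) and Hemk1 (pair of 6430571L13Rik) are not drawn.

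Printed promoters differed in CpG content. Rmnd5a and Josd1 held 37 and 40 CpG dinucleotides, with observed to expected ratios of 1.17 and 1.02, while Zfp661 and 6430571L13Rik held 18 and 19, with ratios of 0.639 and 0.588. Sos1 had a ratio of 0.764 and Tbl1xr1 one of 0.863. The pairs stand at chr6:71439251-71440724 and chr6:71440755-71442266 for Rmnd5a, and at chr3:22075026-22076277 and chr3:22076672-22077607 for Tbl1xr1. Those of Josd1 stand at chr15:79686718-79689023 and chr15:79689487-79691971.

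The gaps ran from 3 to 500 bp, with a median of 162 bp (quartiles 67.5 and 317.5 bp). In 116 pairs the gap was under 100 bp, and in 233 (67.1%) it was 250 bp or less. Both peaks with their gap spanned a median of 3667 bp (1917 to 6879 bp). Just inside the limit lay a pair inside Slc30a3, a zinc transporter gene, with a gap of 500 bp and scores of 7.79 and 6.90. The nearest pairs outside it scored 7.16 and 15.51 at Slc17a7, a vesicular glutamate transporter gene, and 6.62 and 14.62 away from any protein-coding gene end. The smallest gap, 3 bp, parted peaks scoring 5.07 and 6.56 at Gm41011, a gene listed as not protein-coding.

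Twin peaks were lower and narrower than the other peaks of the list in the median. Their median score was 10.74 (interval 10.14 to 11.04), against 11.93 (11.93 to 12.23) for the 20853 other peaks. Among twins 28 peaks (4.04%) were in the 10% of highest scores, against 2212 (10.6%) of the other peaks. The median width was 1659 bp in twins and 1931 bp in other peaks. Both measures of peaks whose partner lay over 500 and up to 1000 bp away were also low, with medians of 10.14 for score and 1780 bp for width. Both scores reached the median of the whole list in 76 pairs, both fell below it in 143, and 128 pairs were split by it.

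Pairs flanked or touched a gene end in most cases, although single twin peaks did so about as often as any peak. Of 693 twins, 377 (54.4%, 50.6 to 58.2%) were within 1 kb of a protein-coding gene end, beside a background of 51.6% over all 21546 peaks used and 10750 of the 20853 other peaks. Counted by pair, within 1 kb of an end of a protein-coding gene stood at least 1 peak of 236 of 347 pairs (68.0%, 62.8 to 72.9%), against 131 of 211 pairs (62.1%, 55.2 to 68.7%) with a gap over 500 and up to 1000 bp and 250 of 401 (62.3%, 57.4 to 67.1%) with one over 1000 and up to 2000 bp, named below by their upper limits. The intervals overlap.

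The pairs differed from wider-spaced ones in how often both peaks were near a gene end, which need not be the same end. Both peaks were within 1 kb of a protein-coding gene end in 141 pairs (40.6%, 35.4 to 46%), against 50 (23.7%, 18.1 to 30.0%) and 85 (21.2%, 17.3 to 25.5%) at the wider gaps, where the peaks also lie farther from each other. In 95 pairs 1 peak was at an end, and in 69 of the 94 of these with unequal scores (73.4%, 63.3 to 82.0%) it was the higher one. In the remaining 111 pairs neither was. Pairs with a stronger weaker peak were more often at an end: 144 of 174 pairs (82.8%, 76.3 to 88.1%) with the lower score at or above its median of 8.65 were, against 92 of 173 (53.2%, 45.5 to 60.8%) below it.

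An end of a protein-coding gene lay between the midpoints in 170 pairs (49.0%, 43.6 to 54.4%), against 91 (43.1%) and 168 (41.9%) of the wider-spaced pairs, with overlapping intervals. In 23 pairs (6.63%) it lay in the gap itself. Strand was known for 136 of the 170 pairs, and a 5′ end was among the ends in 132 of them (97.1%, 92.6 to 99.2%), against 71 of 77 (92.2%, 83.8 to 97.1%) at gaps up to 1000 bp and 127 of 147 (86.4%, 79.8 to 91.5%) at gaps up to 2000 bp. In 4 of the 136 twin pairs the known ends were 3′ ends only.

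Divergent starts, with genes read away from or across each other, were between the midpoints in 17 of 132 pairs (12.9%), against 10 of 71 (14.1%) and 21 of 127 (16.5%). Examples by the highest lower score were Josd1 with Gtpbp1 and 6430571L13Rik with Hemk1. At Med19, a Mediator subunit gene, and Tmx2, a gene of a membrane thioredoxin, the left peak scored 9.84 and the right 13.42 with a gap of 21 bp. At Nudt21, which encodes a subunit of a cleavage factor of messenger RNA precursors, and Ogfod1, the scores were 8.05 and 19.39 with a gap of 7 bp. The last pairs were named after their values were seen.

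**Figure D2:**
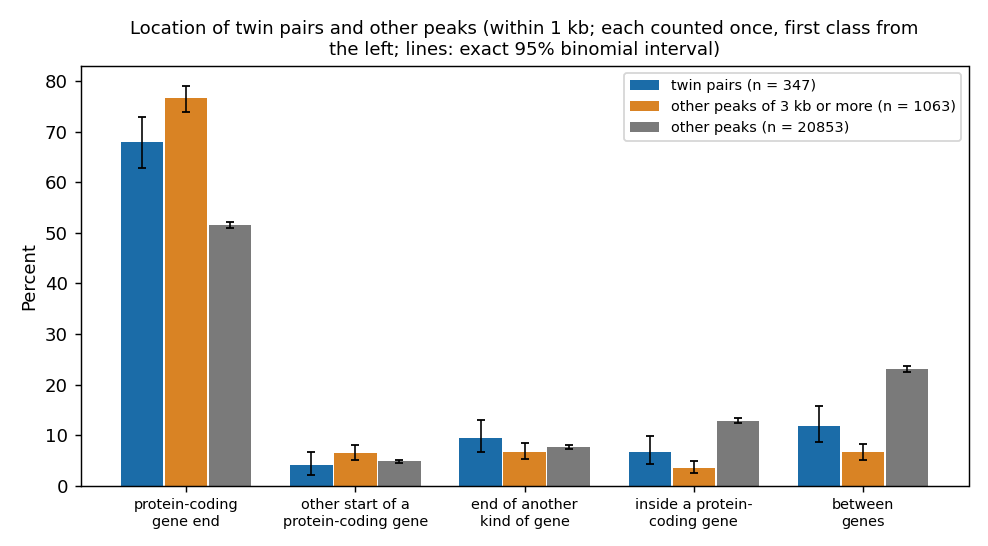
Percent of twin pairs, of other peaks of 3 kb or more and of other peaks (y axis) in each of 5 location classes (x axis), with exact 95% binomial intervals. Protein-coding gene ends hold 68.0% of twin pairs, 76.6% of wide peaks and 51.6% of other peaks; the stretch between genes holds 11.8%, 6.59% and 23.1%.

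Away from protein-coding gene ends, 14 pairs lay at another listed start of a protein-coding gene and 33 at an end of a gene of another kind. A further 23 lay inside a protein-coding gene and 41 (11.8%, 8.61 to 15.7%) between genes, where 4823 (23.1%) of the other peaks were. No starts were listed on chromosome 18, so its 11 pairs could not be placed at another listed start. A pair covers more DNA than 1 peak and so meets a gene end more readily; peaks of 3 kb or more, closer to a pair in length, were at a protein-coding end in 814 of 1063 cases (76.6%) and between genes in 70 (6.59%). Summed scores had a median of 25.5 for pairs at a protein-coding end, 17.6 inside genes and 16.17 between genes.

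The strongest interior pair had high and like scores. It lay in Nr3c1, the glucocorticoid receptor gene, at chr18:39488435-39490778 and chr18:39490794-39492750, 26671 bp from the nearest protein-coding end, and scored 23.27 and 24.46. Whether it stood at a start inside Nr3c1 could not be seen, because no starts were listed on chromosome 18. Usp34, a deubiquitinase gene, had 22.07 and 20.58 at a listed start inside its outermost bounds. At Lncpint, a long non-coding RNA gene, a gap of 4 bp parted scores of 19.99 and 12.73. The pair inside Lpin1, which encodes a phosphatidate phosphatase, scored 19.39 and 10.44. Between genes, peaks of 16.11 and 16.70 stood at chr13:97006733-97008258 and chr13:97008282-97009490, and 8.95 and 21.77 stood 14177 bp from Etf1.

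The position of starts inside the pairs differed from that in wider-spaced pairs. RefSeq promoters gave direction outside chromosome 18, and a listed start lay between the midpoints in 148 of 336 pairs (44.0%), against 80 of 208 (38.5%) and 149 of 389 (38.3%). The start nearest to the gap centre lay in the downstream peak in 98 pairs, in the upstream peak in 32 and in the gap in 18. It was downstream of the gap centre in 111 of 148 pairs (75%, 67.2 to 81.7%), against 58 of 80 (72.5%) and 111 of 149 (74.5%). Pairs with divergent starts are included, and their direction is that of the start nearest to the gap centre.

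Within 250 bp of the gap centre the start stood in 68 of 148 twin pairs (45.9%, 37.7 to 54.3%), against 2 of 80 (2.50%, 0.304 to 8.74%) and 2 of 149 (1.34%, 0.163 to 4.76%) of the wider-spaced pairs. The intervals do not overlap. In wider-spaced pairs that stretch lies wholly in the gap, so the same was counted by zone. The first 250 bp of each peak beside the gap held 69 starts, or 0.411 per kb (exact Poisson interval 0.320 to 0.520), against 0.0385 (0.0105 to 0.0985) at gaps up to 1000 bp and 0.0514 (0.0247 to 0.0946) at gaps up to 2000 bp. The gap itself held 0.275 starts per kb (0.163 to 0.434), against 0.0258 and 0.0153. The 250 bp on either side of each midpoint held 0.339 (0.279 to 0.407), against 0.417 (0.334 to 0.515) and 0.511 (0.442 to 0.587). Starts thus stood at the facing edges of twins as well as at their midpoints, and in wider-spaced pairs mainly around the midpoints.

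**Figure D3:**
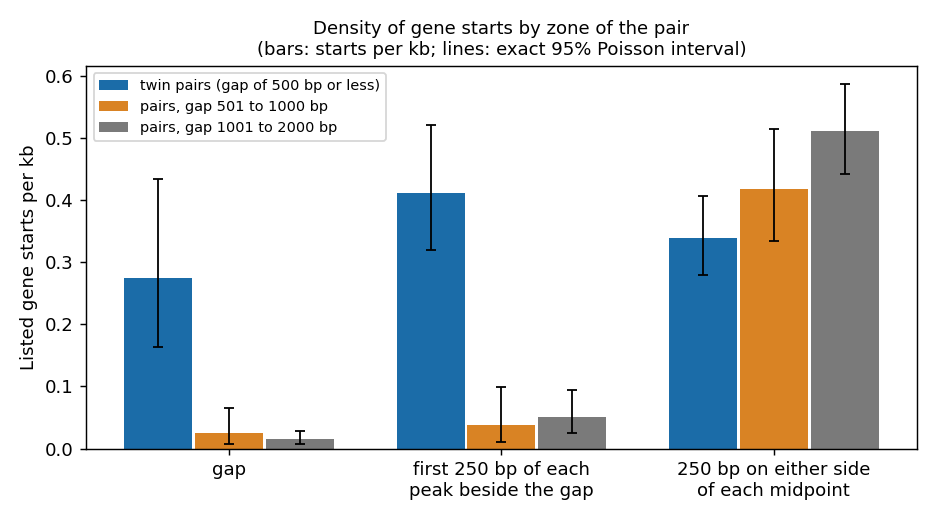
Listed gene starts per kb (y axis) in 3 zones of a pair (x axis), for twin pairs and pairs with wider gaps up to 1000 bp and up to 2000 bp; lines are exact 95% Poisson intervals. In the gap and beside it, twins hold 0.275 and 0.411 starts per kb and both other sets stay under 0.06, while around the midpoints all 3 sets lie between 0.33 and 0.52.

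Counted from every listed start within 3 kb, gap centres of twins peaked 100 to 200 bp upstream of a start, with 31 starts in that 100 bp. Midpoints of the other peaks had their highest bin 0 to 100 bp downstream of a start. The gap centres had 3 groups. Starts within 300 bp of them came to 41.3 per kb per 100 pairs, those 300 to 700 bp away to 10.4, and those 700 to 1200 bp away to 23.3. The other peaks gave 63.7, 14.2 and 3.03, falling steadily, and peaks of 3 kb or more gave 47.0, 40.5 and 17.97. Centres of gaps over 500 and up to 1000 bp gave 2.37, 4.74 and 24.2, without the central group. Facing sides of twin peaks held 0.280 starts per kb, the sides facing away 0.139 and the 1 kb beyond the pair 0.0104, against 0.271 in the other peaks.

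**Figure D4:**
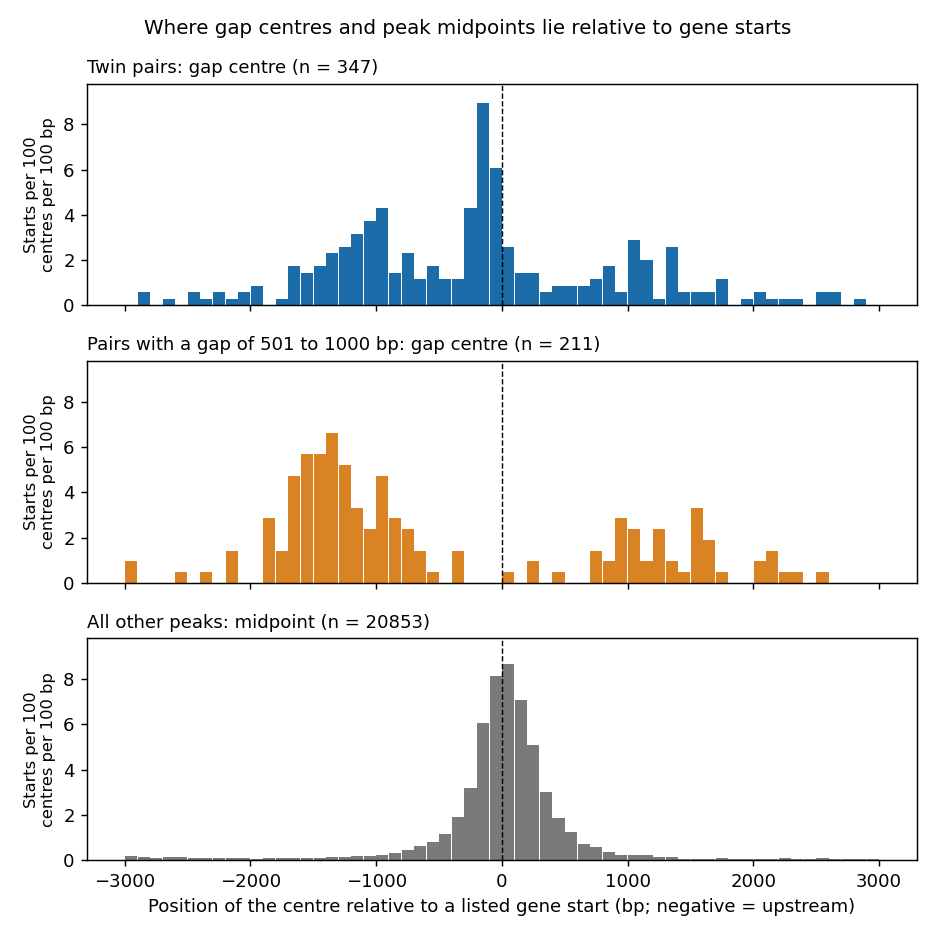
Listed gene starts per 100 centres in bins of 100 bp (y axis) by the position of the gap centre or peak midpoint relative to the start (x axis, bp, negative is upstream). Twin gaps show a summit 100 to 200 bp upstream and a group near 1 kb on each side, wider gaps up to 1000 bp show the outer groups without the summit, and midpoints of other peaks gather at the start.

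In the 68 pairs with a start within 250 bp of the gap centre, the centre lay a median of 87.5 bp upstream of the start (61.0 to 114.5 bp), and upstream of it in 52 pairs. This class, its limit and the next class were chosen after values were seen. The peaks were narrow, 1284 bp upstream and 1363 bp downstream in the median, and the gap was 121 bp. The whole span had a median of 2842 bp, against 4090 bp for pairs with the start near a peak midpoint. Scores of both sides were alike, 11.93 upstream and 11.19 downstream in the median. The downstream peak was the higher in 33 of the 66 pairs with unequal scores (50.0%, 37.4 to 62.6%). Pairs with divergent starts, such as Med19 with Tmx2, are among them, with sides set by the start nearest to the gap centre.

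The pairs of this layout that the naming rule took differed in which side was higher. Id4, an inhibitor of basic helix-loop-helix factors in neural progenitors, had 6.13 upstream and 11.04 downstream, with the start 163.5 bp after the gap centre. Gadd45g, a stress and growth arrest gene, had its start in a gap of 456 bp between scores of 8.57 and 10.44. Mki67, the gene of the proliferation marker Ki-67, had 8.65 upstream and 12.23 downstream. In all 3, the downstream peak was the higher.

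Others were even, or tilted to either side. Nfatc4, a calcineurin-dependent transcription factor gene, had 11.93 on both sides of a 19 bp gap, and the start was 48.0 bp after the gap centre. Fbxo11, an F-box gene, had 11.04 in its downstream and wider peak. The right peak there, upstream of the start, scored 7.76. Zbtb7b, a zinc finger factor gene, had its start in a gap of 95 bp, 8.00 bp before its centre, with 14.91 upstream and 8.35 downstream. Epc2, a relative of Enhancer of polycomb, had 24.46 upstream over its start and 6.26 downstream, a ratio of 3.91.

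Some regulators of this class were named after their values were seen. Mycn, a Myc family oncogene, had 7.51 upstream and 10.44 downstream. Yy1, a zinc finger factor gene, had 20.58 and 11.63. Pou3f2, a POU factor gene of neural progenitors, had 15.31 and 8.65, with the start in a gap of 397 bp. Smarca4, the ATPase gene of the BAF remodelling complex, had 11.33 and 10.74, and Sin3a, a corepressor gene, had 7.46 and 14.62. Rcor1, a corepressor gene, had 18.65 and 22.67. Neither side was the higher in all of these.

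In 40 pairs the start was within 250 bp of a peak midpoint (27.0% of 148), against 43 of 80 (53.8%) and 85 of 149 (57.0%) of the wider-spaced pairs. The peak on the start had a median score of 14.02, against 11.19 for its neighbour, and was the higher in 26 of 40 pairs (65.0%, 48.3 to 79.4%). It was the downstream peak in 30 of 40 pairs, so the neighbour mostly lay upstream. Pairs with divergent starts, such as Josd1 with Gtpbp1, are among these pairs too. In them the 5′ end of a second gene also lay between the midpoints. Eif2b5, a subunit gene of a translation initiation factor exchange complex, had 23.86 on the start and 6.26 upstream. Ep300, an acetyltransferase gene named after its values were seen, had 17.30 on the start and 8.35 upstream. In the last 40 pairs the start was near neither.

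Scores within a pair were less than 2 times apart in most pairs, but only weakly correlated. The median of the higher score was 13.42 and that of the lower score 8.65, and the median ratio was 1.404 (1.35 to 1.45), against 1.51 (1.33 to 1.59) for pairs with gaps up to 1000 bp and 1.499 (1.41 to 1.56) for those up to 2000 bp. The ratio reached 2 in 59 pairs (17.0%, 13.2 to 21.4%), against 52 (24.6%, 19.0 to 31.03%) and 95 (23.7%, 19.6 to 28.2%), and it reached 3 in 16 pairs. It was under 1.1 in 53 pairs, and 5 pairs had equal scores. For the median ratio and for the share reaching 2, the intervals of twins overlap those of both wider-spaced sets. Left and right scores correlated with a Spearman coefficient of 0.23 over 347 pairs, against 0.16 over 211 and 0.11 over 401; pairs share 1 library, and no p is given.

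The most uneven pair was at Cltb, a clathrin light chain gene, where scores of 29.23 and 6.26 gave a ratio of 4.67. At Yipf4 the scores were 23.86 and 5.97, and 14457 bp from Cbx8, a Polycomb gene, 23.06 and 6.13. Equal scores stood at Tbl1xr1, at Nfatc4, at Serpinh1, the gene of a collagen chaperone (10.14 on both sides), at 9330198N18Rik and between genes near Spag9 (5.07). The 21546 peaks had 1186 distinct scores in all, so equal values recur in the list.

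**Figure D5:**
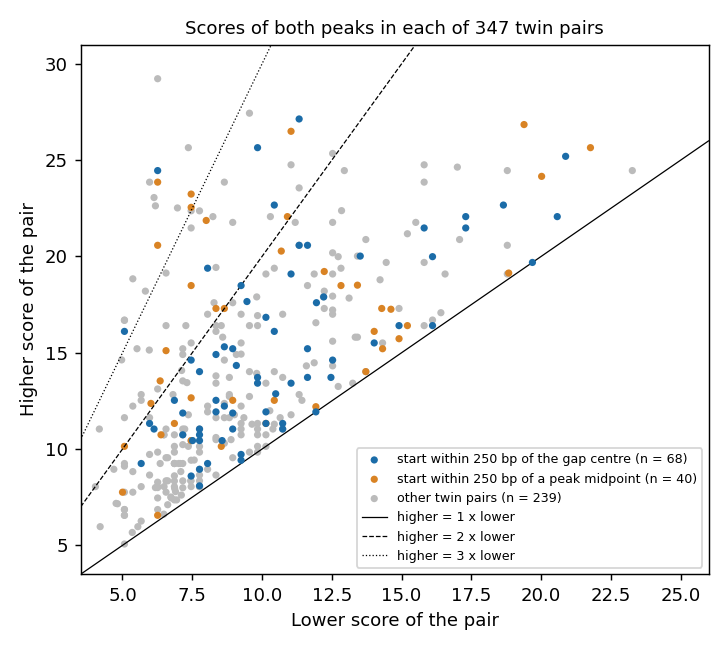
Higher against lower score of each of the 347 twin pairs, 1 point per pair, with lines at ratios of 1, 2 and 3; blue and orange points are pairs with a start within 250 bp of the gap centre (68) and of a peak midpoint (40). Most points lie between the lines for 1 and 2, and 59 pairs lie on or above that for 2.

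By their ratio, widths were more even than scores. Widths also spread relatively less over all twins, with quartiles of 1352 and 2131 bp, against 7.99 and 14.91 for scores. The larger width was 1.31 times the smaller in the median (1.26 to 1.34), against 1.26 (1.21 to 1.35) and 1.31 (1.26 to 1.36). In 25 pairs (7.205%) the width ratio reached 2. The wider peak had the higher score in 214 of 342 pairs (62.6%, 57.2 to 67.7%), against 143 of 209 (68.4%) and 254 of 397 (64.0%), with overlapping intervals. Left and right widths correlated at 0.24, against 0.09 and -0.05. The largest width ratio, 2.70, was at Pcdh8, a protocadherin gene, with 1170 bp (score 6.86) and 3164 bp (10.74). Srgap3, a gene of neuronal development, had 965 and 2443 bp, and Adgrl1, an adhesion receptor gene, 1495 and 3761 bp. In these 3 the wider peak was the higher.

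With starts of 1 direction only between the midpoints, the peak on the transcribed side had the higher score in 68 of 112 pairs (60.7%, 51.0 to 69.8%), against 40 of 60 (66.7%, 53.3 to 78.3%) and 66 of 105 (62.9%, 52.9 to 72.1%). The 3 intervals overlap. The share in twins was 52.0% (40.2 to 63.7%) with a gap limit of 250 bp, 65.6% (46.8 to 81.4%) with peaks at or above the median score alone and 57.6% (44.1 to 70.4%) among pairs with scores 1.5 times apart or more, and these 3 intervals include an even split. The largest span, 6879 bp, was between genes 65962 bp from Zfp217, with scores of 7.36 and 6.94. Others were at Serpinh1 (6512 bp) and Zbtb7b (6307 bp). A pair at an internal start of Ptch1, the hedgehog receptor gene, spanned 6251 bp and scored 12.83 downstream and 6.81 upstream. The single run of 3 peaks stood at Per1, a circadian clock gene, with scores of 8.34, 6.86 and 8.61 from chr11:69094011-69096374 to chr11:69098123-69100894, and the middle peak was the lowest and narrowest.

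Promoters between twin peaks had CpG ratios close to those at other peaks, and above those of all promoters. The observed to expected CpG ratio had a median of 0.763 (0.707 to 0.811) over 185 promoters between midpoints, 0.766 (0.761 to 0.772) over 10912 promoters at other peaks and 0.567 over all 21263. It was 0.809 (0.732 to 0.863) for the 68 starts near a gap centre and 0.682 (0.558 to 0.796) for the 40 near a peak midpoint, with overlapping intervals. Motifs were searched by their letters on both strands of the same 300 bases, and a match is a description. GGGCGG, the GC box, was in 73.0% (66.0 to 79.2%) of promoters between midpoints, 67.5% of those at other peaks and 46.2% of all. It was in 61 of 68 near a gap centre (89.7%, 79.9 to 95.8%) and 24 of 40 near a peak midpoint (60.0%, 43.3 to 75.1%). CCAAT was in 41.6% between midpoints, 37.8% at other peaks and 38.2% of all, and in 58.8% (46.2 to 70.6%) and 27.5% (14.6 to 43.9%) of both classes in the same order. TATAAA was in 5.95%, 5.98% and 12.6%, and in 6 of 68 and 0 of 40, the last allowing up to 8.81%.

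Twin peaks marked few genes. Of 21774 protein-coding genes 301 had a twin within 1 kb of an end, a background of 1.38% of genes, or 2.50% of the 12060 with any peak there. Their highest end score had a median of 15.51, against 17.14 for the 11759 genes with a peak that was no twin. Leaving out Y, which had 2 peaks and no twin, chromosomes ran from 1.77% of peaks in twins on chromosome 1 (1.14 to 2.62%) to 4.92% on chromosome 7 (3.88 to 6.14%). The X had 5 pairs among 494 peaks.

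Lists of brain and reference genes held few twins, and with so few members a share near the background cannot be told from a larger one. Of 20 radial glia and progenitor genes only Id4 had one, and the list of intermediate progenitors held Gadd45g. Of 27 cell cycle genes Mki67 and Ccnd2 had a pair, and the scores at Ccnd2, the cyclin D2 gene, were 5.07 and 7.76.

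No gene had a twin in the lists of neurons (18 genes), astrocytes and oligodendrocytes (14), endothelium (12), erythroid cells (12), microglia and white blood cells (14), H2AZ genes and their deposition and removal (16), chromatin modifiers (17), housekeeping (16) and brain patterning regulators (42). The same was found for 39 Hox, 95 ribosomal protein and 1105 olfactory receptor genes. Of these, 7 Hox, 77 ribosomal protein and 1 olfactory receptor genes had any peak at an end. The Hox and olfactory receptor lists therefore had little room for a twin. Short lists do not stand for all genes of their kind. Epc2 and Ep300, reported above with a twin, are in none of them, and chromatin genes as a whole were not counted. Any peak at an end was present in 16 of 20 radial glia genes, 12 of 18 neuron genes, 5 of 14 genes of astrocytes and oligodendrocytes, 4 of 12 endothelial, 5 of 12 erythroid and 3 of 14 microglial ones, and 14 of 16 housekeeping genes, beside 12060 of all 21774 protein-coding genes. A peak does not measure expression, so this does not test the cell type.

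Zinc finger genes named Zfp with a number had 13 of 367 members at a twin (3.54%, 1.90 to 5.98%), beside 1.38% of all protein-coding genes. Any peak at an end was present for 287 of the 367 (78.2%), and 2.50% of all genes with any peak had a twin. Zfp423, a factor of neural development, had 19.99 upstream and 16.11 downstream, and its start was 86.0 bp after the gap centre. Zfp384 had 10.49 upstream and 12.87 downstream of a gap of 68 bp. Zfp36, which encodes an RNA-binding protein that speeds messenger decay, had 14.32 on its start and 15.21 upstream. Zfp536 had 14.02 and 10.44 and Zfp609 had 8.35 and 7.76. The pair at Zfp13 and Zscan10 was uneven, with 16.68 and 5.07. These examples were chosen after their values were seen. The genes of the microRNA hairpins Mir7688, Mir8098, Mir484 and Mir7655 lay inside spans, with scores of 11.04 and 13.42 at Mir484.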

How the data were processed

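An H2AZ ChIP library and an input library were made from neural progenitor cells, and 1 peak list was used, with no header. The score is a value that the authors deposited for each peak without naming its meaning, and it served here only to describe and rank peaks of this list. The deposited start (counted from 0, printed here from 1) and end were used as given. Peak names begin with MACS, per the deposited file. Which version, which settings and whether the input was its control were not given in the sources used here. CASAVA 1.4, Bowtie2 2, FastQC and the build mm9 are in the submitters' processing notes. Positions were read as GRCm38: 51.6% of peaks stood 1 kb or less from an end of a protein-coding gene of RefSeq GRCm38.p6, against 11.4 and 11.0% after shifts of 100000 bp up or down (twins 54.4%, against 10.8 and 9.96%). Of 21592 peaks, 46 numbered after the last Y peak were left out. Peak numbers reach 32646, more than the peaks listed, and the 2 peaks of each of the 347 pairs had consecutive numbers.

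Gene ends are the outermost bounds of 21774 protein-coding genes; direction and starts come from RefSeq promoters of 17492 of them, none on chromosome 18. Medians have order-statistic intervals and shares Clopper-Pearson intervals. Named pairs are the 8 with the highest lower score, the 5 most extreme by gap, score ratio, width ratio, equal scores and span, the run of 3, the 5 highest summed scores over 5 kb from protein-coding ends, and pairs at genes of 12 lists; sequences are those of 6 genes with their outermost 5′ end between the midpoints, by the highest lower score. Some of what this rule takes is not reported here. Members, lists and limits were chosen with earlier results of these data known. Alternatives changed the gap limit, the peaks, the gene ends and the ratio. Python 3.11.15, numpy 2.4.6, pandas 2.3.3, scipy 1.17.1 and matplotlib 3.10.9 were used, and the pairing was tested on simulated data, where 200 of 200 planted pairs were found.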

Additional observations from a re-analysis of the deposited data

How the results depend on the processing

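Of 66 values recomputed under other settings, 47 moved by less than their interval or 1.5 times and 19 moved by more; none changed its direction. A gap limit of 250 bp gave 190 genes marked; one of 1000 bp gave 558 pairs, 482 genes and a median width of 1712 bp. With peaks at or above the median score alone, paired anew, 76 pairs and 96 genes were left, by construction from fewer peaks. In these 88.2% of pairs were at a gene end and 71.1% had an end between the midpoints. The score and width ratios were 1.24 and 1.24, and the median score and width were 16.4 and 1820 bp. The wider peak was the higher in 55.4% of these pairs (43.4 to 67.0%), an interval that includes an even split. With ends of all annotated genes, 78.7% of pairs were at an end, 58.2% had one between the midpoints and 9.8% one in the gap, and 91.9% of those of known strand had a 5′ end. Among pairs with scores 1.5 times apart or more, the wider peak was the higher in 73.2%. The geometric mean of the score ratio was 1.5. The 13 values with the out-of-order peaks kept all stayed. Other gap limits also change the counts of pairs and genes by construction, and leaving out weaker peaks raises the median score. Ends of more genes can only raise the shares of pairs at an end, with an end between the midpoints and with an end in the gap. The geometric mean is another statistic than the median. For the remaining moves the cause was not tested. No paired analysis was possible because there was 1 ChIP library. Positions rest on the peak caller's edges, and 233 gaps were 250 bp or less. Called peaks that are not listed here could have made further pairs.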
